A study of Mus musculus with 18 samples.

Results

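The Cep genes, named for centrosomal protein, were described here across testes of repro9/repro9 mutant and wild-type mice. Members were the genes whose symbol is Cep followed by digits alone, and each was read from 1 probe set, the one with the highest mean log2 signal over all 18 arrays among those annotated to that gene alone. Of the 18193 genes with a probe set of their own on the array, 33 were members. All 33 passed the filter on low signal, as did 15265 genes in all.

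Total RNA of whole testis was hybridised to Affymetrix whole-genome mouse arrays, and the deposited values are MAS5 signals, a brightness per probe set on a linear scale. The groups were repro9/repro9 at 14 days post partum (dpp, 5 arrays), wild type at 14 dpp (3 arrays), repro9/repro9 at 17 dpp (5 arrays) and wild type at 17 dpp (5 arrays). By the study's design text, the ages were chosen because the testis is then rich in early to middle pachytene and in late pachytene to diplotene spermatocytes, respectively. The allele repro9 lies in Mybl1, which encodes the transcription factor A-MYB of meiotic male germ cells, and every cell of the mutant carries it. The labels name neither the background strain nor a tie between an array and 1 animal, so the p-values measure only the spread between these samples, which may be technical.

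A centrosome is a pair of centrioles, short barrels of microtubules, within a cloud of protein that anchors microtubules. Centrioles are copied once per cell cycle, and in a cell that stops dividing the older one can dock at the membrane as the basal body of a cilium. In the male germ line they serve the meiotic spindle poles, and in the spermatid the base of the sperm flagellum. Cep proteins share a location rather than a fold. They are grouped below by role: centriole duplication and length, appendages and cilium, the linker between centrioles, centriolar satellites with the material around centrioles, and cytokinesis.

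The mutant arrays of 14 dpp gave Mybl1 signals of 68.1 to 249, against 512 to 775 on the wild-type arrays. For 17 dpp these were 83.4 to 293 against 1076 to 3959, so that the genotypes did not overlap at either age. The arrays fell into 3 sets by the 3' to 5' signal ratio of the beta-actin control, a measure of how complete the labelled RNA was. Set 1 (7 arrays of both ages, ratio 2.31 to 2.92) held 2 arrays of each group except wild type at 17 dpp, of which it held 1. Set 2 (4 arrays of 14 dpp, 1.45 to 1.49) held 3 mutant and 1 wild-type array, and set 3 (7 arrays of 17 dpp, 103 to 125) held 3 mutant and 4 wild-type arrays. Each result is therefore given by a fit without and a fit with the array set as a block. Of 10 pachytene spermatocyte markers, 7 were lower in the mutant at 14 dpp and 10 at 17 dpp in both fits, and their summed signal was 4142 to 6134 in mutants against 70288 to 149176 in wild type at 17 dpp. At that age 0 of 9 spermatogonial and 0 of 8 Sertoli cell markers differed without the block, and 4 and 3 were higher in the mutant with it; of the markers of Leydig (4), peritubular myoid (5), macrophage (5) and endothelial cells (5), 0, 0, 1 and 0 were higher without the block and 0, 1, 3 and 0 with it. The part of these shifts in the Cep results was not tested. In RNA of a whole testis, fewer cells of a type and less RNA per cell cannot be told apart.

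Comparing genotypes at 17 dpp asks which members differ in level where Mybl1 is mutant, at the age of late pachytene and diplotene. Without the block, 6 of the 33 members (18.2%) were lower in the mutant and 0 were higher, where 5.84% of all genes tested were lower and 2.04% higher. They were Cep128, Cep126, Cep70, Cep63, Cep120 and Cep95, from 9.23-fold down to 2.01-fold lower on average. With the block, 18 members (54.5%) were lower and 0 higher, where 11.5% of all genes were lower and 14.5% higher. A gene is called here at an adjusted p under 0.05 in limma, a linear model of log2 signal fitted across all probe sets, adjusted by the Benjamini-Hochberg method over 34754 tested probe sets. The median log2 difference of the members was −0.66 without and −0.68 with the block, beside 0.26 and 0.22 over all genes, so single differences stand against a background shifted upward in the mutant. On arrays shifted to a common median, the 2 medians without the block were −0.80 and 0.12. All 5 mutant arrays lay below every wild-type array for 8 members, where this held for 5% of all genes, and above every one for 0 members, against 2.06%.

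Cep128, a protein of the subdistal appendages that anchor microtubules on the older centriole, differed most. In wild type at 17 dpp its signal was 3094, 1986, 3191, 2677 and 7373 on the 5 arrays, and in the mutant 317, 212, 438, 612 and 320. The genotypes were separated by a wide gap, with the lowest wild-type array well over the highest mutant one. The log2 difference was −3.21 ± 0.34 (SE; limma, adjusted p = 4.73e-06), or 9.23-fold, and −3.11 ± 0.31 with the block. It was −3.58 within set 1 and −2.92 within set 3. The other 2 tested probe sets of Cep128 gave −2.61 and −3.54 without the block.

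Cep126, found at the centrosome and the base of the cilium, measured 1277, 2239, 2786, 1979 and 3523 in wild type and 293, 346, 742, 499 and 813 in the mutant at 17 dpp. The groups did not overlap. The log2 difference was −2.17 ± 0.31 (limma, adjusted p = 0.000164), or 4.49-fold, and −1.96 ± 0.19 with the block. Its other, dimmer probe set gave −0.95 and was not called. Cep70, a tubulin-binding centrosomal protein known from sperm flagellum assembly, measured 1887, 4623, 6327, 3894 and 4584 in wild type and 615, 969, 1261, 1432 and 1278 in the mutant. Here too every mutant array lay below every wild-type array, the lowest wild-type array being the only one from set 1. The log2 difference was −1.90 ± 0.29 (limma, adjusted p = 0.00033), or 3.72-fold, and −1.70 ± 0.18 with the block. Within set 1 it was −1.29 and missed the threshold (limma, adjusted p = 0.0518). The other tested Cep70 probe set was called lower as well, at −2.44.

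The 250 bases before the annotated starts of these 3 members are shown because they differed most among the members called without the block, in a mutant of a DNA-binding factor of the MYB family. The sequences are from RefSeq, build GRCm38.p6, 5′ to 3′ in the direction of the gene, with Cep126 having 2 listed starts. Capitals mark the MYB family's core motif, CAACNG or TAACNG on either strand.
Cep128 at chr12:91384410-91384659 (minus strand): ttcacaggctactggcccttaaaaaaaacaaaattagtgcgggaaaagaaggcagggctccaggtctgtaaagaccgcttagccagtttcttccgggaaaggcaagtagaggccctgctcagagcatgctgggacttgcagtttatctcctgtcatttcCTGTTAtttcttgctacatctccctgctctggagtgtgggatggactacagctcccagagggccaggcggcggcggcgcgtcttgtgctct
Cep126 at chr9:8123665-8123914 (minus strand): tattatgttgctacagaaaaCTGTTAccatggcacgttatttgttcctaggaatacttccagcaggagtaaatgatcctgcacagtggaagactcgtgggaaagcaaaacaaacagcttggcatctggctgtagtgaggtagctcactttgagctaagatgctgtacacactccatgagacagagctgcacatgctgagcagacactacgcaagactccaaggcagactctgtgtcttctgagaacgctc
Cep126 at chr9:8134447-8134696 (minus strand): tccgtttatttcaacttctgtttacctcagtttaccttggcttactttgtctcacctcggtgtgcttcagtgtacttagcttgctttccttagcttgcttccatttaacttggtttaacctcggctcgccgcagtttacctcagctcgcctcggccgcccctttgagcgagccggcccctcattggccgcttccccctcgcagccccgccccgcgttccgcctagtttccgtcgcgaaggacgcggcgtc
Cep70 at chr9:99243091-99243340 (plus strand): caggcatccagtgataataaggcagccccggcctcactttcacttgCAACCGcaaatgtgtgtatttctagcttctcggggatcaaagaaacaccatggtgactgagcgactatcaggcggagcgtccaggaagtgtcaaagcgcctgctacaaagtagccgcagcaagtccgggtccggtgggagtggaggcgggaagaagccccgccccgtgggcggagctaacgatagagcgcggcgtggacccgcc
Cep128 held 1 match, which began 91 bases before the start, and Cep70 held 1, which began 204 bases before it. One of the Cep126 starts held a match, 230 bases before it, and the other held 0. Over all 32851 starts listed, 43.1% held at least 1 match, and of 35 starts of 29 members 17 did (48.6%), a share near the background. Among the 19 starts of the members called lower with the block, 7 held it. Cep120, Cep76, Cep192 and Cep350 had no entry. Median GC content of the window was 60.8% over member starts and 52.4% over all starts. A match describes letters only.

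**Figure D1:**
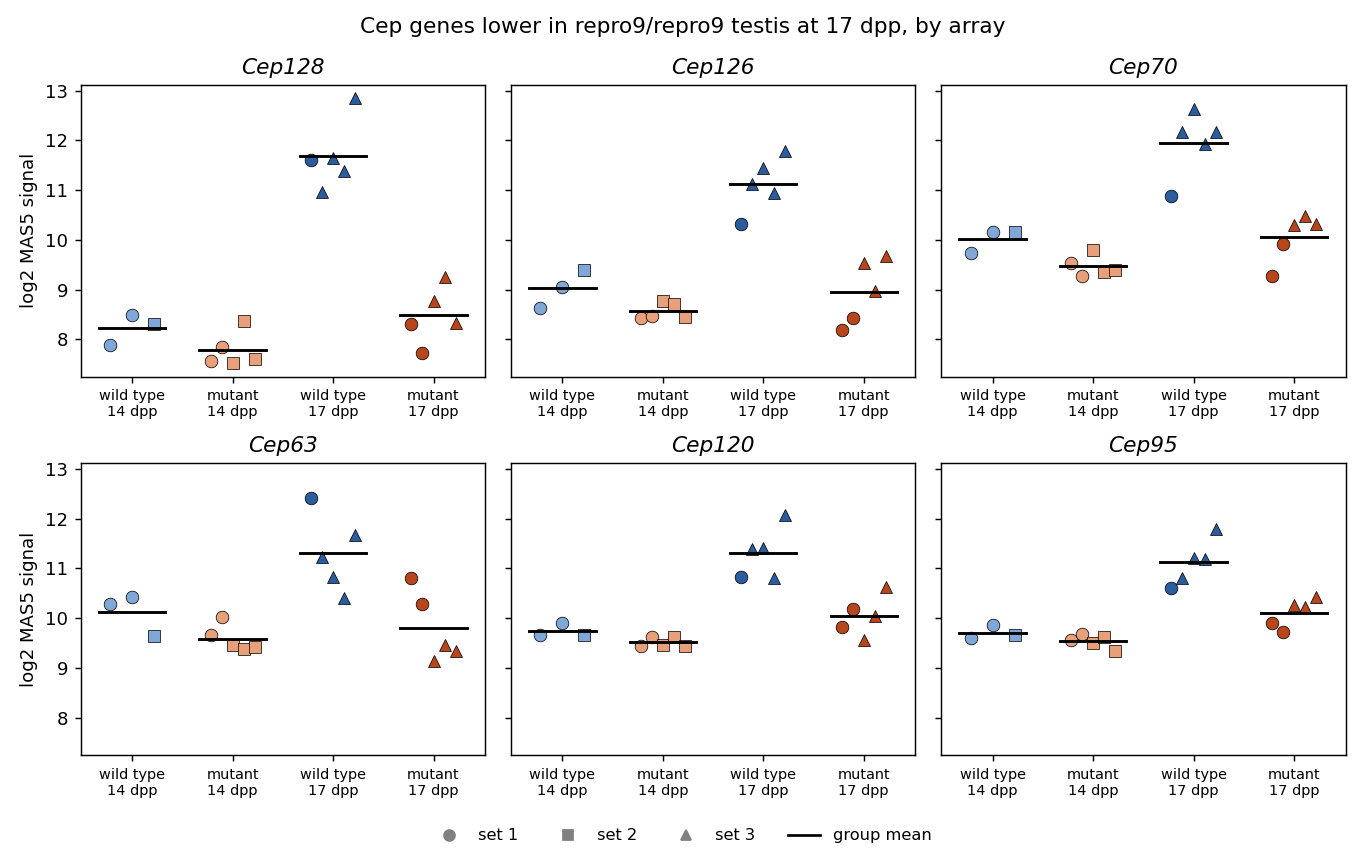
Log2 MAS5 signal of the 6 Cep genes that were lower in the mutant at 17 dpp without the block, by group on the horizontal axis; each point is an array, its shape gives the array set, and the line is the group mean. Mutant arrays at 17 dpp lie below every wild-type array of that age for 5 of the 6, while for Cep63 they overlap between sets but not within a set.

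Among the 13 members of centriole duplication and length control, 2 were lower without the block and 6 with it. Cep63 sits with Cep152 in a ring around the parent centriole, where the new centriole starts. At 17 dpp it measured 5440, 2403, 1828, 1353 and 3245 in wild type and 1782, 1240, 562, 703 and 650 in the mutant. The groups overlapped, the arrays of set 1 being brighter in both; within either set they did not. The log2 difference was −1.51 ± 0.36 (limma, adjusted p = 0.0178), or 2.84-fold, and −1.76 ± 0.20 with the block (limma, adjusted p = 4.87e-06). Without mutant replicate 3 or without wild-type replicate 5 it lost its call without the block, with an adjusted p in limma of at most 0.0598. The other, dimmer probe set of Cep63 was at −0.54 without and −0.44 with the block and was not called.

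Cep120, which lengthens new centrioles, measured 1827, 2688, 2717, 1793 and 4319 in wild type and 904, 1162, 758, 1051 and 1584 in the mutant. The groups did not overlap, and the log2 difference was −1.26 ± 0.25 (limma, adjusted p = 0.00356), or 2.39-fold. It was −1.20 ± 0.22 with the block, −0.83 within set 1, where it was not called, and −1.34 within set 3. The other 4 lower members of the group passed the threshold with the block but not without it. Cep44 acts when a new centriole becomes a centrosome; its geometric mean at 17 dpp was 555 in the mutant (204 to 1367) and 1294 in wild type (681 to 2204), a log2 difference of −1.22 ± 0.44 without and −1.52 ± 0.27 with the block. Cep76, which limits renewed copying, had 261 (139 to 380) against 547 (286 to 890), −1.07 ± 0.32 and −1.17 ± 0.28. For both the ranges of the genotypes overlapped. A second tested probe set of Cep44 was at −0.73 without and −0.50 with the block and was not called. Cep76 also had a second probe set, at 0.06, that did not share the difference. The call of Cep76 with the block was lost without wild-type replicate 1.

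Cep97 caps centrioles together with Ccp110. Its mutant arrays (209 to 425) lay below every wild-type array (533 to 773), and its log2 difference of −0.88 ± 0.25 just missed the threshold without the block (limma, adjusted p = 0.0516). With the block it was −0.95 ± 0.19 (limma, adjusted p = 0.00218). The further tested probe sets of Cep97 were at −0.27, −0.31 and −0.83 with the block and were not called in either fit. Cep57, which organises the material around the centriole and binds Cep63, had 439 to 729 in the mutant and 632 to 1674 in wild type, −0.66 ± 0.26 and −0.72 ± 0.23. It was the least firm call of the group: the adjusted p with the block was 0.0364 in limma, and the call was lost without any 1 of mutant replicates 1, 2, 3 and 4 or wild-type replicates 1 and 5.

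The other 7 members of the group were not called in either fit at 17 dpp by the probe set that stands for them. Cep152, the partner of Cep63, was at 0.15 ± 0.29 without and 0.05 ± 0.26 with the block. Cep192, a scaffold for the kinase Plk4, was at 0.06 ± 0.36 and −0.23 ± 0.16. Cep295, Cep85, Cep350 and Cep78 lay between 0.08 and 0.33 without the block and between −0.22 and 0.21 with it. A second probe set of Cep85, the partner of Stil, was at −1.06 without the block and was called lower with it, at −1.91 (limma, adjusted p = 0.031). Cep135, a cartwheel protein, was dim, above the filter on only 4 arrays, and its −1.18 ± 0.72 carried a wide error.

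Of the 12 appendage and cilium members, 2 (Cep128 and Cep126) were lower without the block and 7 with it. Cep164, a distal appendage protein that brings the kinase Ttbk2 to the basal body, had 391 to 1128 in the mutant and 600 to 2571 in wild type. The ranges overlapped, and the log2 difference was −0.86 ± 0.48 (limma, adjusted p = 0.342) without and −1.13 ± 0.23 (limma, adjusted p = 0.00232) with the block. Its second tested probe set was called lower in both fits, at −1.37 and −1.10. The other distal appendage members, Cep83 at the root of the structure and Cep89, were not called, at −0.29 ± 0.12 and −0.42 ± 0.27 with the block. Of the other 2 tested probe sets of Cep89, 1 was called lower with the block, at −1.99 (limma, adjusted p = 0.00427), and the other was at −0.26.

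Cep290, a gatekeeper of the ciliary transition zone, measured 885 to 2649 in the mutant and 1504 to 4214 in wild type, −0.93 ± 0.36 without and −0.69 ± 0.18 with the block (limma, adjusted p = 0.0129). Cep43, a centriole protein also named FOP, measured 353 to 1574 and 612 to 2763, −0.66 ± 0.42 and −1.001 ± 0.19 (limma, adjusted p = 0.00126). Both passed with the block alone, and both had overlapping genotypes over the pooled arrays. Cep19, which brings Rabl2 to the basal body, showed a small but even difference: 1364 to 1733 in the mutant lay wholly below 1944 to 2613 in wild type, at −0.51 ± 0.16 without and −0.53 ± 0.12 with the block (limma, adjusted p = 0.00584). Cep162, a link between the centriole and the transition zone, was also called with the block, at −0.55 ± 0.16. The call of Cep162 was lost without mutant replicate 3 or wild-type replicate 1. Its further tested probe sets were at −0.14 and −0.24 with the block and were not called.

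Cep170, which shares the subdistal appendage with Cep128, measured 313 to 1395 in the mutant and 515 to 2117 in wild type and was not called, at −0.81 ± 0.42 without and −0.45 ± 0.17 with the block. With the block it passed the threshold when mutant replicate 2 or wild-type replicate 2 was left out. Cep41, a factor in tubulin glutamylation, and Cep20, a centriole and satellite protein also named FOPNL, were at −0.10 ± 0.19 and −0.17 ± 0.19 with the block and were not called.

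Satellites, granules that carry cargo to the centrosome, were grouped with the material around the centriole. All 3 members of this group were lower with the block, and Cep70 without it too. Cep72 measured 1891, 305, 295, 243 and 374 in wild type and 289, 470, 17.4, 129 and 67.7 in the mutant. The 1891 and the 2 highest mutant values were the arrays of set 1, so the groups overlapped over all arrays but not within a set. The log2 difference was −1.91 ± 0.70 (limma, adjusted p = 0.131) without and −2.46 ± 0.39 (limma, adjusted p = 0.000229) with the block. Cep131, which the sperm flagellum needs, measured 812, 232, 150, 156 and 130 in wild type and 270, 301, 13.3, 97.7 and 39.7 in the mutant. Again set 1 was brighter in both genotypes, and the groups separated only within the sets. The difference was −1.42 ± 0.69 (limma, adjusted p = 0.272) without and −1.96 ± 0.40 (limma, adjusted p = 0.00243) with the block. On 2 mutant arrays of Cep131 and 1 of Cep72 the signal lay below that array's 40th percentile, the filter's bound, so the sizes of these differences are uncertain.

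The remaining roles held few members. Cep55, the midbody protein of the last step of cytokinesis, had 2397 to 2833 in the mutant and 3273 to 4459 in wild type. These ranges were apart, and the log2 difference was −0.48 ± 0.23 (limma, adjusted p = 0.269) without and −0.49 ± 0.11 (limma, adjusted p = 0.00527) with the block. Neither linker member was called. Cep68, a fibre protein of the linker, was at 0.10 ± 0.42 without and 0.42 ± 0.18 with the block. Cep250 was at −0.38 ± 0.70 and −0.68 ± 0.64, and was above the filter on only 10 arrays. Leaving out mutant replicate 5 made Cep68 the only member called higher in the mutant with the block.

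Cep95 and Cep112 are little characterised coiled-coil proteins. Cep95 measured 1554, 1798, 2369, 2326 and 3532 in wild type and 955, 848, 1233, 1197 and 1378 in the mutant, with no overlap. The log2 difference was −1.01 ± 0.22 (limma, adjusted p = 0.00905), or 2.01-fold, and −0.90 ± 0.16 with the block. It was not called after quantile normalization, within set 1, with only the compared groups fitted, or as the mean of its probe sets, of which 1 gave 0.20 without the block. Cep112 was at 0.03 ± 0.26 and 0.13 ± 0.21 and was not called.

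**Figure D2:**
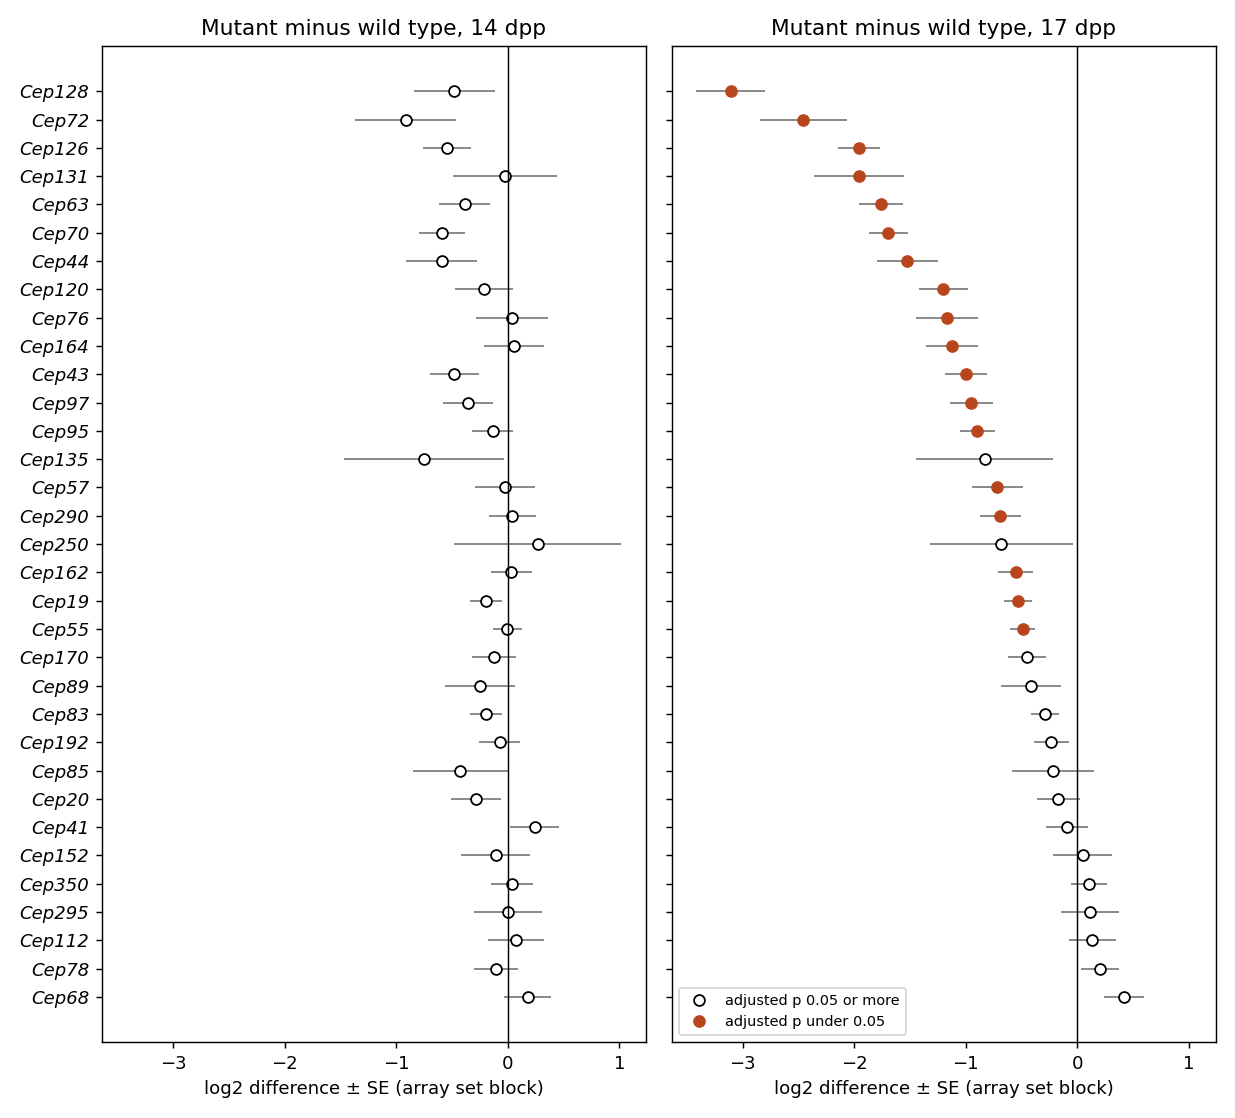
Log2 difference of the 33 Cep genes, mutant minus wild type, at 14 dpp (left) and 17 dpp (right), from the fit with the array set as a block; bars are the SE and filled points have an adjusted p under 0.05. At 17 dpp 18 genes are filled, all below 0, and at 14 dpp none is.

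The 18 members called with the block were lower within set 1, from −0.33 (Cep55) to −3.58 (Cep128), and within set 3, from −0.55 (Cep55) to −2.92 (Cep128). The block fit that picked them rests on the same arrays of these sets, so this direction is not separate support for the calls. Within set 1, with 2 mutant arrays against 1 wild-type array that was assumed to vary like the others, 3 members were called, beside 4.09% of all genes lower and 0.236% higher: Cep128, Cep126 and Cep63. Within set 3, whose actin ratio was the highest, 15 were called, beside 8.69% lower and 7.18% higher. Cep57, Cep76 and Cep162 were below 0 in both sets and called in neither. Without all the arrays of set 3, 10 members were called, beside 7.01% lower and 3.09% higher. Leaving out 1 array of 17 dpp at a time, the block fit called from 15 to 19 members lower. The 15 were without wild-type replicate 1, the only wild-type array of 17 dpp in set 1.

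**Figure D3:**
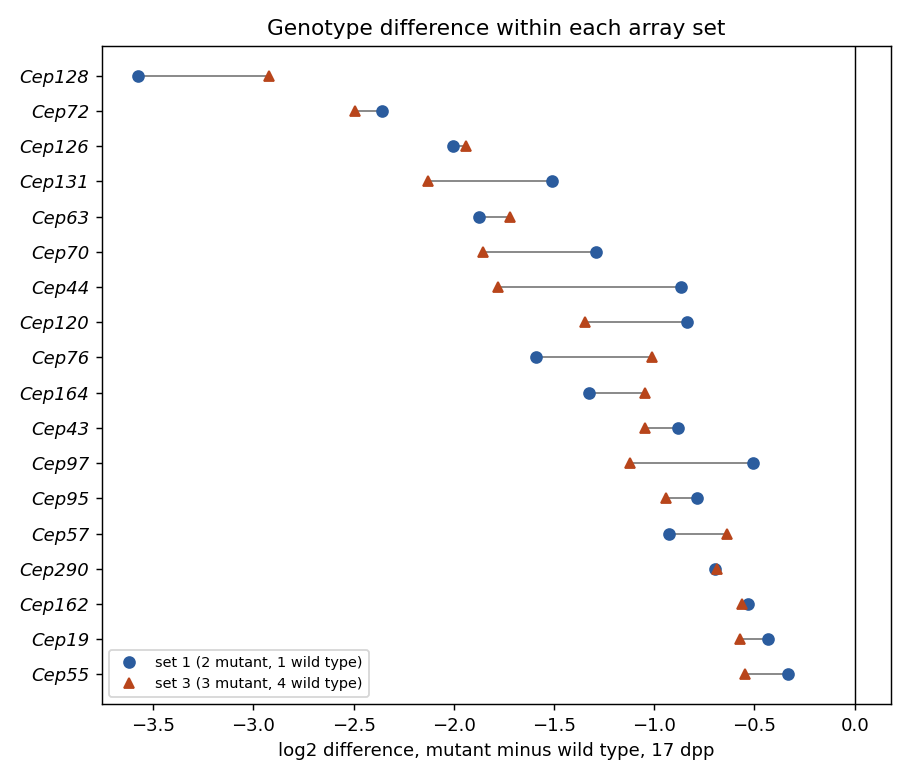
Log2 difference at 17 dpp, mutant minus wild type, within set 1 (circles, 2 mutant and 1 wild-type array) and within set 3 (triangles, 3 mutant and 4 wild-type arrays) for the 18 Cep genes called with the block. Both values lie below 0 for every gene shown, and the sets differ most for Cep44, −0.86 in set 1 and −1.78 in set 3. The genes were picked by the block fit on these same arrays.

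Of these 18 members, 12 had a further tested probe set, 17 in all. With the block 15 of the 17 were below 0, 5 were called lower and 0 higher. Cep128, Cep70, Cep164 and Cep57 had at least 2 probe sets called lower. The 15 members not called had 19 further tested probe sets in 10 of them, of which 7 were below 0, 2 were called lower (those of Cep85 and Cep89) and 0 higher. Positions of the probes on the transcripts were not used here.

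At 14 dpp 0 of 33 members were called without the block (0 at an unadjusted p under 0.05, limma) and 0 with it (3 at an unadjusted p under 0.05), where 0.321% and 0.59% of all genes were called in either direction. Their median log2 difference was −0.21 without and −0.12 with the block, beside 0.00 and 0.01 over all genes. Of the 33 members 26 and 23 were below 0, beside 7565 and 7457 of all 15265 genes tested. With limma's array weights, 7 members (Cep164, Cep44, Cep55, Cep63, Cep72, Cep83 and Cep85) were called lower, in a fit that called 13.2% of all genes.

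The 3 members with the largest differences among those called without the block at 17 dpp had the following values at this age. Cep128 measured 236, 357 and 317 in wild type and 188, 230, 183, 331 and 195 in the mutant at 14 dpp. The ranges overlapped, and the log2 difference was −0.44 ± 0.39. Cep126 measured 397, 531 and 669 in wild type and 343, 354, 439, 421 and 350 in the mutant, and also overlapped, at −0.46 ± 0.36. Cep70, with 850, 1136 and 1142 against 738, 618, 885, 656 and 669, overlapped by 1 mutant array only. It was at −0.55 ± 0.34 without and −0.59 ± 0.20 with the block (limma, adjusted p = 0.745). For 4 members (Cep72, Cep120, Cep43 and Cep19) all mutant arrays lay below every wild-type array, as for 4.49% of all genes, and for 0 members above. Cep72 had 361 to 585 in wild type and 189 to 306 in the mutant, Cep120 had 806 to 955 and 691 to 788, Cep43 had 1611 to 1677 and 1112 to 1248, and Cep19 had 1248 to 1448 and 967 to 1226.

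The interaction, the genotype difference at 17 dpp minus that at 14 dpp, tests whether the ages differ. It was called for 1 member without the block, Cep128 at −2.76 ± 0.52 (limma, adjusted p = 0.0323), where 0.36% of all genes were called lower. With the block 3 were called, where 1.82% of all genes were: Cep128 at −2.63 (limma, adjusted p = 0.00921), Cep126 at −1.41 (limma, adjusted p = 0.0182) and Cep63 at −1.38 (limma, adjusted p = 0.0294). Cep126 and Cep63 were at −1.71 and −0.98 without the block and were not called there. Their other, dimmer probe sets were at −0.53 and −0.19 with the block and were not called. Those of Cep128 that were tested were at −2.23 and −3.26 with the block, and only the latter was called. The Cep128 call without the block was lost when any 1 of 12 arrays was left out: all 8 of 14 dpp, mutant replicates 1, 2 and 5 of 17 dpp, and wild-type replicate 3 of 17 dpp. It was also lost with the replicate number as a block. For the other 15 members lower at 17 dpp, a difference from 14 dpp was not shown.

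The ages were also compared within each genotype, and the comparison in wild type shares its 17 dpp arrays with the genotype comparison above. Without the block 8 members (24.2%) were higher at 17 than at 14 dpp and 0 lower, where 7.06% of all genes were higher and 18.9% lower. With it 12 (36.4%) were higher and 0 lower, where 4.83% and 4.57% of all genes were. Set 1 alone held both ages, and only 1 of its arrays was wild type at 17 dpp. Cep128 rose from a geometric mean of 299 to 3293, a log2 difference of 3.46 ± 0.39 (limma, adjusted p = 6.89e-05) and 3.10 ± 0.46 with the block. Cep126 rose from 521 to 2233, at 2.10 ± 0.36 and 1.37 ± 0.27. Cep70 rose from 1033 to 3969, at 1.94 ± 0.34 and 1.19 ± 0.26, and Cep120 from 854 to 2528, at 1.57 ± 0.29 and 1.32 ± 0.33. These 4 were called in both fits, as were Cep95 and Cep19. Within set 1 the differences were 3.41 for Cep128, 1.48 for Cep126, 0.94 for Cep70 and 1.06 for Cep120. Those of Cep95 and Cep19 there were 0.87 and 0.70. All of these rest on that 1 wild-type array of 17 dpp, so set 1 alone cannot show whether the rises hold. The other, dimmer probe set of Cep126 did not share the rise, at −0.20 without and −1.76 with the block, and was not called. Further tested probe sets of Cep128 and Cep70 were above 0 in both fits.

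For 2 members the call depended on the array sets. Cep290 was higher without the block, at 1.56 ± 0.42, and at 0.33 ± 0.27 with it (limma, adjusted p = 0.501). Cep170 was higher without the block, at 1.42 ± 0.49, and at −0.06 ± 0.25 with it, so its direction turned. Conversely, Cep63, Cep131, Cep72, Cep164, Cep97 and Cep162 were called higher with the block alone. Cep131 was at 0.16 ± 0.80 without and 2.38 ± 0.59 with the block, Cep63 at 1.19 ± 0.42 and 2.04 ± 0.29, and Cep164 at 1.08 ± 0.55 and 1.68 ± 0.34. The second tested probe set of Cep164 did not share the rise, at −0.11 without and −1.22 with the block, and was not called. That of Cep63 was above 0 in both fits.

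Within the mutant 0 of 33 members were called between the ages without the block (10 at an unadjusted p under 0.05, limma) and 0 with it (2 at an unadjusted p under 0.05), where 1.77% and 0.786% of all genes were called. Cep128 had a geometric mean of 220 at 14 dpp and 357 at 17 dpp in the mutant, a log2 difference of 0.70 ± 0.34 without and 0.47 ± 0.42 with the block. Cep126 had 379 and 498, at 0.39 ± 0.31 without and −0.04 ± 0.25 with the block, so its direction turned. Cep70 had 707 and 1066, at 0.59 ± 0.29 and 0.08 ± 0.24. None of these passed the test. These counts hold for the probe set that stands for each member. With the block, second probe sets of Cep164 and Cep57 were called lower at 17 than at 14 dpp in the mutant. They were at −2.32 (limma, adjusted p = 0.00137) and −1.07 (limma, adjusted p = 0.0242). Without the block they were at −1.46 and 0.23 and were not called. Without the block, 5 members were called when mutant replicate 1 of 17 dpp was left out, and 2 when its replicate 2 was. The share of all genes called in these fits is not given here, so the counts stand without a background.

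**Figure D4:**
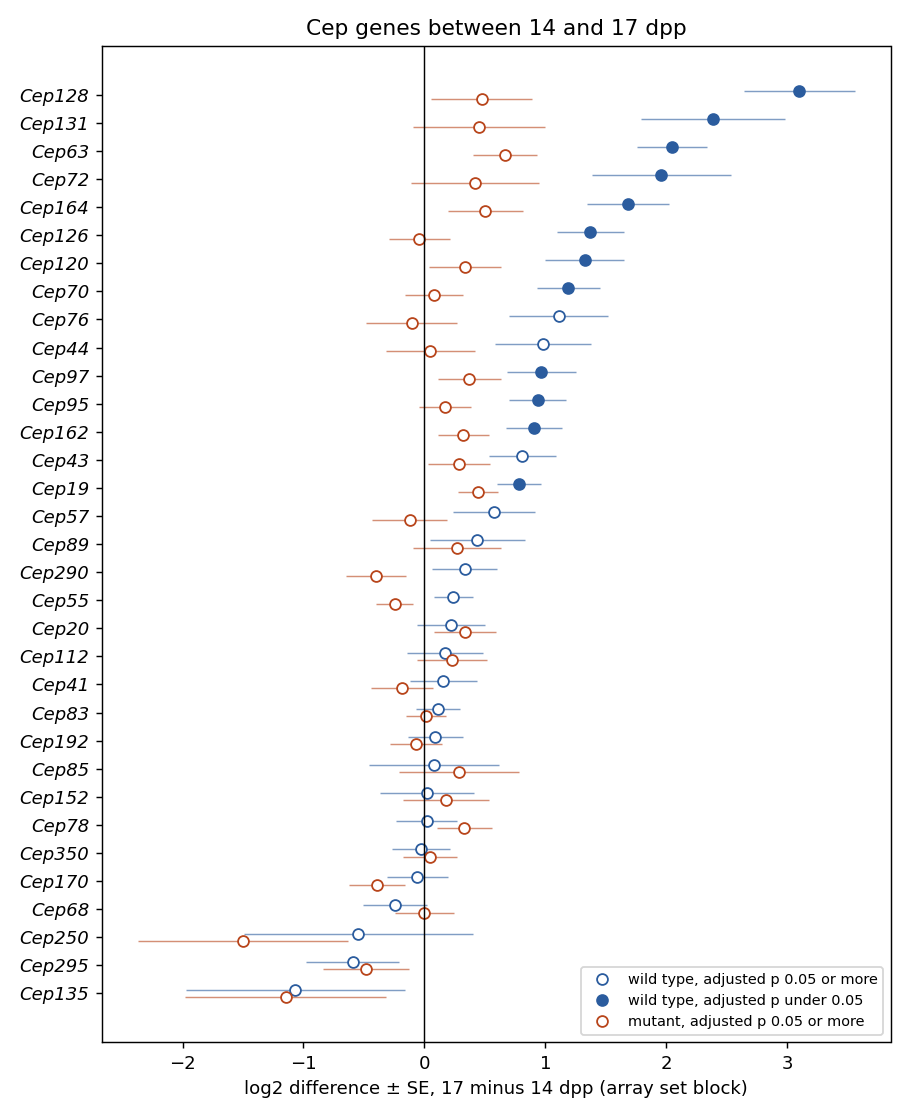
Log2 difference of the 33 Cep genes between ages, 17 minus 14 dpp, in wild type (blue) and in the mutant (red), from the fit with the array set as a block; bars are the SE and filled points have an adjusted p under 0.05. In wild type 12 genes are filled, all above 0, with Cep128 at 3.10, and in the mutant none is.

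Centriole genes outside the members were read from a list of 58, of which 57 were on the array and 55 were tested. At 17 dpp 7 were lower and 0 higher without the block, beside 5.84% and 2.04% of all genes, and 18 lower and 4 higher with it, beside 11.5% and 14.5%. The median log2 difference was −0.25 and −0.36, beside 0.26 and 0.22 over all genes. The 6 with the largest differences among the 7 called without the block were Cetn1 (−4.59 ± 0.38) and Cetn4 (−3.70 ± 0.29), centrins of the centriole lumen, the kinase Nek2 (−2.46 ± 0.58), which dissolves the linker, Ccp110 (−2.10 ± 0.27), the capping partner of Cep97, Cntln (−1.56 ± 0.25), a linker protein, and Stil (−1.24 ± 0.26), a duplication factor. Plk4, the kinase that starts duplication, was at 0.05 ± 0.28, and Sass6, of the cartwheel, at −0.47 ± 0.19, and neither was called. Those higher in the mutant with the block were Cetn2, Ofd1, Cep170b and Haus7. Cep170b is named Cep but is not a member, because a letter follows the digits of its symbol. At 14 dpp 0 of the 55 were called in either fit, with 3 at an unadjusted p under 0.05 without and 5 with the block (limma).

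On chromosome 9 lay 7 of the 33 members, namely Cep57, Cep63, Cep70, Cep126, Cep162, Cep164 and Cep295. With the block 6 of these 7 were lower at 17 dpp, Cep295 being the exception, and 12 of the 26 members elsewhere were. Of 860 genes tested on that chromosome, 14.8% were lower.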

How the data were processed

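The intensity values are MAS5 signals deposited by the authors, 1 per probe set and array; MAS5 is named per the submitters' processing notes without a version, and GCOS per the series' design text. The sources state no scaling across arrays, and the main model used the deposited values as they are. Median signal ran from 88.8 to 149 over the arrays; precision is limited by how many arrays there are. Of 45037 non-control probe sets, 34945 were annotated to 1 gene. A probe set was tested if it exceeded its own array's 40th percentile (49.2 to 93.6) on at least 3 arrays, which 34754 did. The model of log2 signal (limma 3.58.1, R 4.3.3) had a mean for each of the groups over 18 arrays, moderated variances with a trend on intensity, and two-sided tests at a threshold of 0.05. The block fit added the array set, with bounds of 1.9 and 10 on the actin ratio, as a fixed term. Each ± is limma's standard error. The procedure was tested on simulated data. Their noise was normal and independent between arrays, so that test is not support for the calls made here.

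The members, the role groups, the lists and the array sets were chosen with earlier results of these data known. Values are named for members called at either age, up to the 16 with the largest differences (others by their role group), and for up to 6 called in each age comparison and in the interaction; Cep55 and Cep162 lie past the 16. Some values outside this rule (members not called, the age values in the mutant, Plk4 and Sass6) were chosen after they were seen. Same-numbered mutant and wild-type arrays had correlated deviations of 0.283 to 0.385 at 14 dpp and of −0.227 to 0.777 at 17 dpp. At 14 dpp differently numbered arrays of 1 set gave 0.289 to 0.383, so the numbers were not treated as pairs.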

Additional observations from a re-analysis of the deposited data

Results flagged for a closer look

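Of 99 sets of values checked (33 Cep genes in the 3 groups of 5 arrays), 2 held an array far from the others of its group, and chance flags about 1 in 20. Cep72 in wild type at 17 dpp was 1891 on replicate 1 against 243 to 374 on the other arrays, and that replicate was the only wild-type array of set 1 at this age. Cep19 in the mutant at 14 dpp was 967 on replicate 3 against 1152 to 1226 on the others, in set 2 with 2 further arrays of its group. The genotype difference of Cep128 differed between the ages, by −2.76 on the log2 scale (limma's interaction, adjusted p = 0.0323).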

How the results depend on the processing

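The count of Cep genes called at 17 dpp (6) was 18 with the array set block, 19 and 18 with that block and a common median or quantile normalization, 3 within set 1, 15 within set 3, 10 without set 3, 3 with only the compared groups fitted, and 5 to 8 without 1 array. With the replicate number as a block it was 8, and the counts for the interaction and for the ages in wild type and mutant were 0, 8 and 1. The interaction count (1) was 3 with the array set block, with that block and a common median and with array weights, 2 with the block and quantile normalization, 0 within set 1, after quantile normalization, with the mean of a gene's probe sets and with the unmoderated test at 0.025, and 0 to 1 without 1 array. The age count in wild type (8) was 2 within set 1, 15 after quantile normalization, 21 with array weights (which called 56.2% of all genes), 13 with the block and a common median, and 5 to 13 without 1 array, with 5 without wild-type replicate 1 or 3 of 14 dpp and 13 without replicate 1 of 17 dpp. The age count in mutants (0) was 2 without set 3, 2 with a common median, 1 after quantile normalization, 1 with log2(signal + 16), 1 with the mean of probe sets, 13 with array weights (which called 39.8% of all genes), and 0 to 5 without 1 array, with 2 without replicate 2 of 17 dpp. The count at 14 dpp (0) was 7 with array weights and 0 without any 1 array. With array weights, 1.82% of all genes were called in the interaction. The share of all genes called is given for the fits without and with the array set block alone. It is also given for the 17 dpp counts within set 1, within set 3 and without set 3. Apart from these and the array weights, it is not given for the other counts here. Those counts therefore stand without a background. Cep170 reversed in wild type between the ages: −0.062 with the block, −0.16 within set 1, −0.016 without set 3 and −0.041 with the block and quantile normalization. At 17 dpp all 16 members described by the naming rule kept their sign under 25 settings, and Cep128 and Cep126 kept their call in all 25. The 16 were picked by their differences in these data and the settings reuse the same arrays, so this is not separate support. The causes were not tested. Cep135 and Cep250 on most arrays of 17 dpp, Cep131 on 2 mutant arrays and Cep72 on 1 lay below the filter's bound, which limits their precision.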
